A study of Mus musculus with 6 samples.

Results

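The nuclear genes of respiratory complex I were taken from the count table by symbol: every Ndufa, Ndufab, Ndufb, Ndufc, Ndufs and Ndufv gene with a number, which gave 37 of 44792 gene symbols. Of the 37, 36 had enough counts to be tested, and Ndufs7 did not. Ndufa4 is in the list by its name but is now assigned to complex IV. The hearts were those of 3 mice with the cTnI mutation R193H, an amino acid change in the inhibitory protein of the cardiac troponin complex, and of 3 wild type mice. All 6 mice were C57BL/6, were 3 months old and had no treatment. Whether the R193H mice carried 1 or both copies of the allele, how the line was made and which part of the heart was taken is not given in the sources used here. Each heart gave 1 RNA library, and per the series design the 3 hearts of each genotype are biological repeats.

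Complex I (NADH:ubiquinone oxidoreductase) is the entry point for electrons from NADH into the respiratory chain. Its matrix arm holds an N module, which oxidises NADH on a flavin, and a Q module, which passes the electrons over iron-sulfur clusters to ubiquinone. Its membrane arm, with a proximal and a distal part, pumps protons. The core subunits carry out the catalysis, and those of the membrane arm are encoded by mitochondrial DNA. The accessory subunits are nuclear and serve assembly, stability and regulation. Heart muscle is dense in mitochondria and draws most of its ATP from this chain.

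The libraries held 21852210, 19582600 and 21468372 counts in R193H hearts 1, 2 and 3, and 14736067, 17432761 and 20652534 counts in wild type hearts 1, 2 and 3. The 37 genes took 143320 to 152952 counts per R193H heart and 99252 to 145362 counts per wild type heart. R193H heart 2 stood apart, with 30.9% of its counts from mitochondrially encoded genes, against 35.2% to 36.8% in the other 5 hearts. Counts per gene do not show the substituted base, so the genotype itself was not checked here.

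For 35 of the 36 genes tested the mean levels of the genotypes were close, which with 3 hearts against 3 does not show that they are equal. None of the 36 genes tested passed the threshold of an adjusted p of 0.05 in edgeR's quasi-likelihood test with Benjamini-Hochberg adjustment over all 14370 genes tested, in which 0.00696% of all genes passed. The smallest adjusted p of edgeR's quasi-likelihood test among them was 0.892, for Ndufa10. None had an unadjusted p under 0.05 in this fit, against 5.73% of all genes. When libraries were scaled by their total counts, 1 of the 36 did in the same test. DESeq2 and limma-voom also called 0 of these genes. Apart from Ndufs5, the 35 genes had log2 fold changes (R193H over wild type) of -0.14 to 0.13, that is, R193H means at 0.907 to 1.09 times the wild type means. Their standard errors were 0.073 to 0.14. Every 95% interval of these 35 genes lay between -0.36 and 0.34, and so within 0.5 of 0 on the log2 scale, as did the intervals of 55.0% of all genes. The hearts also varied little in these genes. The biological coefficient of variation is edgeR's estimate of the spread between hearts beyond counting error, drawn toward that of genes of similar level. It was 9.06% to 13.8% for the 35 genes, all under the median of 14.2% over all genes tested. This was not particular to the list: its median was 9.97%, beside 10.3% for nuclear genes of complexes II to V and 11.3% for complex I assembly factors. The plot of log2 fold changes by module shows 35 of the estimates with their intervals.

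**Figure D1:**
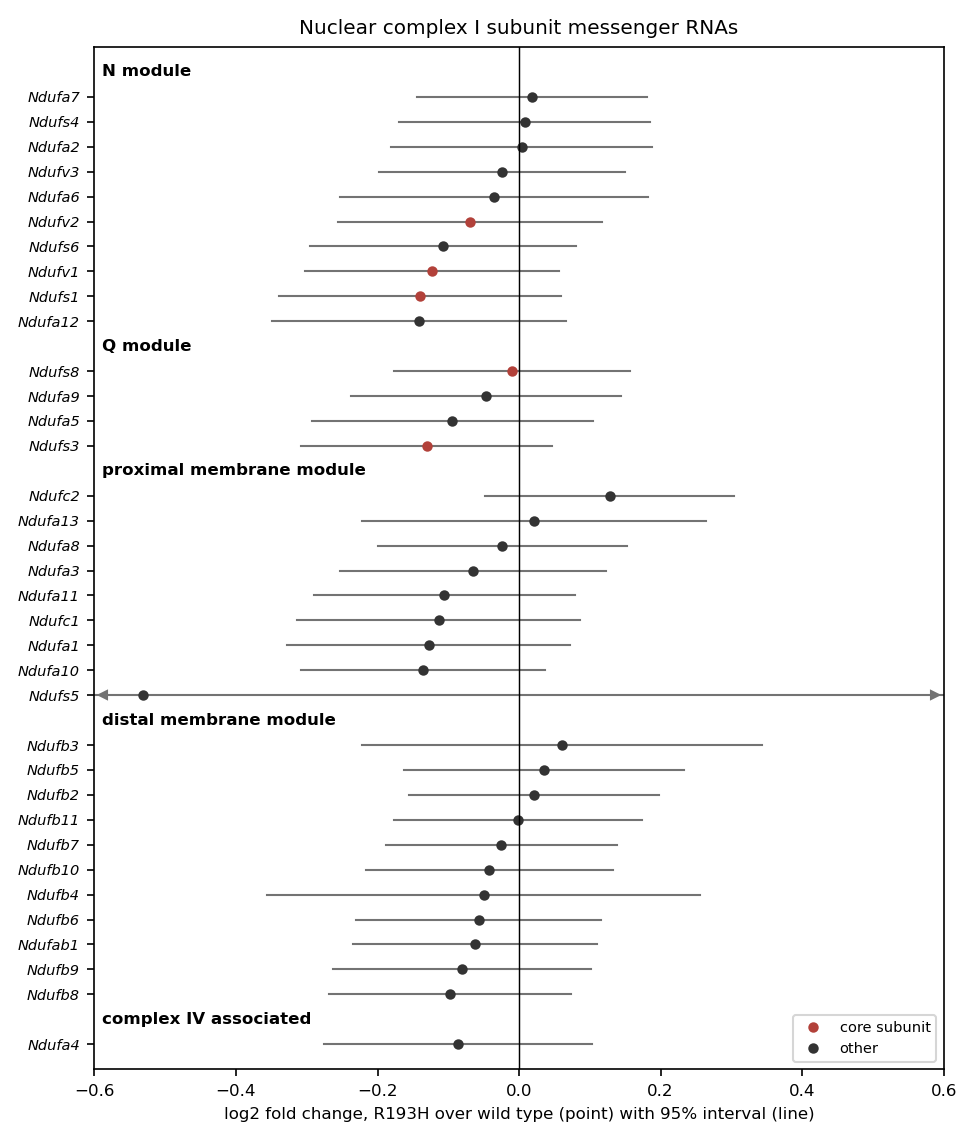
Log2 fold change of 35 of the 36 tested genes, R193H over wild type (horizontal axis, point), with its 95% interval (line), grouped by module, and core subunits in red. All intervals include 0, and that of Ndufs5 (-3.62 to 2.56) runs past both edges of the axis. Of all 36 genes, 28 were below 0, where 50.1% of all genes tested were. With libraries scaled by their totals 6 were, where 21.3% of all genes tested were.

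Under TMM scaling the small differences were mostly in one direction. Of the 36 genes, 28 had a lower mean in R193H hearts, where 50.1% of all genes did. When libraries were scaled by their total counts in place of TMM factors, 6 of 36 did, where 21.3% of all genes did. TMM factors (trimmed mean of M values) centre most genes on no change. Under either scaling 28 of the 36 lay below the median of all genes. The median log2 fold change of the 36 genes under TMM was -0.060, beside -0.00036 for all genes tested. Scaling by library totals moved the median of all genes to 0.13 and that of the 36 genes to 0.067, so that the 36 genes lay -0.059 from the median of all genes under TMM and -0.060 under library totals. Without R193H heart 2 the median was -0.026, with 24 of 36 genes lower.

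Summed over all 37 genes, the levels in CPM (counts scaled by the TMM-adjusted total of their library) came to 6877, 6557 and 7077 in R193H hearts 1, 2 and 3, and to 7043, 7294 and 7281 in wild type hearts 1, 2 and 3. R193H heart 2 had the lowest sum, and R193H heart 3 lay above wild type heart 1, so the groups overlapped. The means were 6837 ± 263 CPM in R193H hearts and 7206 ± 141 CPM in wild type hearts (SD, n = 3 each). As a share of all counts in a library the order was the other way, with 0.713% ± 0.017 in R193H hearts and 0.689% ± 0.015 in wild type hearts (SD, n = 3 each).

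The plot of the deviations in each heart shows that R193H heart 2 carried much of the difference. Across 35 genes (Ndufs5 and Ndufs7 left out), the median deviation from the wild type mean on a log2(CPM + 0.5) scale was -0.056, -0.13 and -0.0057 in R193H hearts 1, 2 and 3. It was -0.025, 0.035 and 0.016 in wild type hearts 1, 2 and 3. R193H heart 3 therefore lay between wild type hearts 1 and 3 by this measure. R193H heart 2 was the lowest of the 6 hearts in 20 of 36 genes and the highest in 0. Wild type heart 3 was the highest in 12 genes and wild type heart 2 in 10.

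**Figure D2:**
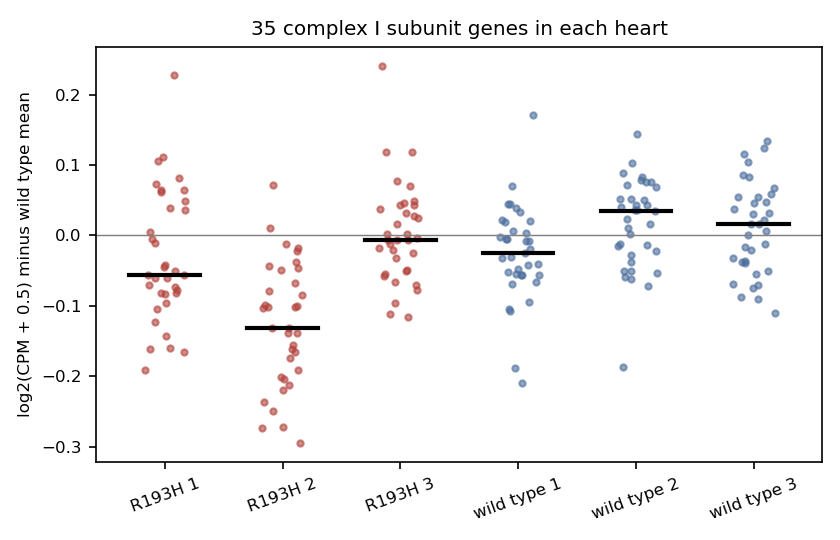
Deviation of each of 35 genes from its wild type mean (vertical axis, log2(CPM + 0.5)), by heart, with 1 point per gene and a black bar at the median. The bar of R193H heart 2 is the lowest at -0.13, while those of the other 5 hearts lie between -0.056 and 0.035.

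Markers of heart muscle were abundant in every library, and fibroblast markers were highest in R193H heart 2. On the same scale the median deviation of 6 fibroblast markers was 0.74 in R193H heart 2, against -0.040 and -0.064 in R193H hearts 1 and 3. The 10 ventricular cardiomyocyte markers stood at -0.18 in R193H heart 2, and at -0.044 and 0.0028 in R193H hearts 1 and 3. Summed cardiomyocyte marker levels ranged from 52975 to 57869 CPM in R193H hearts and from 58315 to 60473 CPM in wild type hearts, with 7 of the 10 markers lower in R193H. Summed fibroblast markers ranged from 1332 to 2086 CPM in R193H hearts and from 1248 to 1486 CPM in wild type hearts, with 6 of 6 higher. Of 8 macrophage markers, 7 were in the count table. Their sums ranged from 235 to 325 CPM in R193H hearts and from 186 to 218 CPM in wild type hearts, with 7 of 7 higher. In edgeR 5 of the 7 macrophage markers and 3 of the 10 cardiomyocyte markers had an unadjusted p under 0.05, against 5.73% of all genes. In the fibroblast, endothelial, red cell and atrial lists 0 genes did. The 6 endothelial markers were also 6 of 6 higher, with sums of 1131 to 1288 CPM in R193H hearts and 1037 to 1276 CPM in wild type hearts. Red cell markers were 5 of 5 lower, with sums of 476 to 630 CPM in R193H hearts and 257 to 3094 CPM in wild type hearts. Of 4 tested atrial markers 4 were lower, with sums of 132 to 242 CPM in R193H hearts and 80.7 to 679 CPM in wild type hearts. Both lists varied more among wild type hearts than among R193H hearts, and their groups overlapped. The counts of markers higher or lower are read against the 50.1% of all genes with a lower mean in R193H hearts. No list of markers had a gene past the adjusted threshold or a gene at 0 in all hearts. In whole tissue, fewer cells of a type and less RNA per cell cannot be told apart, and the part of the cell mixture in the small differences above was not tested.

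The core subunits of the matrix arm are the flavin and iron-sulfur proteins through which electrons run. There are 7 nuclear core genes, 6 of them tested, and each of the 6 had a lower mean in R193H hearts under TMM scaling, with a median log2 fold change of -0.11 and 0 calls in edgeR. On TMM-scaled CPM the groups did not overlap for 3 of the 6, among them Ndufs1 and Ndufv1. By the same measure R193H hearts lay wholly below wild type hearts for 5.8% of all genes. Under scaling by library totals Ndufs8, Ndufv1 and Ndufv2, among others, had higher means in R193H hearts, and the log2 fold changes of Ndufs1 and Ndufs3 shrank to -0.018 and -0.0039.

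Ndufs1 (GRCm38 chromosome 1, 63143596 to 63176833, minus strand), the largest subunit and carrier of several iron-sulfur clusters of the N module, had 655, 579 and 672.4 CPM in R193H hearts 1, 2 and 3, against 673.0, 687 and 741 CPM in wild type hearts 1, 2 and 3. The groups touched: the highest R193H heart and the lowest wild type heart were less than 1 CPM apart. Its log2 fold change was -0.14 (SE 0.089, 95% interval -0.34 to 0.059, adjusted p = 0.900 in edgeR's quasi-likelihood test). Ndufv1 (chromosome 19, 4007384 to 4012806, minus strand) binds the flavin and NADH, and had 414, 420.4 and 440.8 CPM in R193H hearts, against 441.8, 490.1 and 457 CPM in wild type hearts. Again the gap between the groups was about 1 CPM, and the log2 fold change was -0.12 (SE 0.080, 95% interval -0.30 to 0.056). Ndufv2 (chromosome 17, 66078638 to 66101559, minus strand), whose iron-sulfur cluster lies beside the flavin, had 311, 294 and 337 CPM in R193H hearts, against 330.4, 318 and 341 CPM in wild type hearts. Its groups overlapped, with a log2 fold change of -0.070 (SE 0.083).

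In the Q module, Ndufs3 (chromosome 2, 90894634 to 90904827, minus strand), a core subunit without a cluster, had 138.1, 138.1 and 147.5 CPM in R193H hearts, against 152, 164 and 147.2 CPM in wild type hearts. R193H heart 3 lay just above wild type heart 3, so these groups overlapped, and the log2 fold change was -0.13 (SE 0.079). Ndufs8 (chromosome 19, 3908863 to 3912774, minus strand), an iron-sulfur protein of the Q module, had 143, 150.1 and 151 CPM in R193H hearts, against 143, 149 and 155 CPM in wild type hearts. Its values were intermixed between the groups, with a log2 fold change of -0.010 (SE 0.075) that turned to 0.012 without R193H heart 1 and to 0.017 without wild type heart 3.

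Ndufs7 (chromosome 10, 80249121 to 80256794, plus strand), the core subunit that carries the last iron-sulfur cluster before ubiquinone, was listed with 0, 1 and 0 counts in R193H hearts and 1, 0 and 2 counts in wild type hearts. No heart reached 3 counts, the number that a library with a count of 0 still allows (0.137 to 0.153 CPM in R193H hearts and 0.145 to 0.204 CPM in wild type hearts, for counting error only). The other 6 core genes had at least 138 CPM in every heart. How the reads of Ndufs7 were counted is not given in the sources used here, and no level or fold change is given for it.

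Of the 29 accessory genes, 21 had a lower mean in R193H hearts under TMM scaling, with a median log2 fold change of -0.047 and 0 calls in edgeR. By module, lower means were found for 7 of 10 genes of the N module, 5 of 5 tested genes of the Q module, 7 of 9 of the proximal membrane arm and 8 of 11 of the distal membrane arm. The module medians were -0.053, -0.094, -0.11 and -0.042. These counts are read against the 50.1% of all genes with a lower mean, and no module had a gene past the threshold in edgeR.

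Ndufa10 (chromosome 1, 92439010 to 92473860, minus strand), a proximal membrane arm subunit related to nucleoside kinases, had the smallest p of the list. It had 381, 396 and 413 CPM in R193H hearts, against 433, 448 and 426 CPM in wild type hearts. The groups did not overlap, and the log2 fold change was -0.14 (SE 0.077, 95% interval -0.31 to 0.037, unadjusted p = 0.111 and adjusted p = 0.892 in edgeR's quasi-likelihood test). Ndufa12 (chromosome 10, 94198720 to 94221443, plus strand), which sits where the N and Q modules meet, had 79.4, 72.5 and 86.9 CPM in R193H hearts, against 88.1, 94.1 and 81.2 CPM in wild type hearts. R193H heart 3 lay above wild type heart 3, and the log2 fold change was -0.14 (SE 0.093). In the remaining accessory genes with groups that did not overlap, Ndufa1, Ndufa11 and Ndufb8, log2 fold changes were -0.13 (SE 0.090), -0.11 (SE 0.082) and -0.097 (SE 0.077). With Ndufa10 and the 3 core genes, this made 7 of 36 genes with R193H hearts wholly below wild type hearts, a share to be read against the 5.8% of all genes. The same was found for 12 of 40 nuclear genes of complexes II to V, so it was not particular to the list. Whether groups overlapped was read for every gene on TMM-scaled CPM only, so these counts hold for that scaling. Under scaling by library totals the log2 fold changes of Ndufa10 and Ndufa12 shrank to -0.0082 and -0.018.

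Ndufc2 (chromosome 7, 97400003 to 97407802, plus strand), a proximal membrane arm subunit, was the only 1 of 36 genes whose R193H hearts lay wholly above wild type hearts, a pattern found for 6.02% of all genes. It had 85.0, 76.3 and 76.6 CPM in R193H hearts, against 74.8, 73.1 and 69.8 CPM in wild type hearts. R193H heart 1 was the highest, and the log2 fold change of 0.13 (SE 0.079, 95% interval -0.048 to 0.30) had an adjusted p of 0.898 in edgeR's quasi-likelihood test. Under scaling by library totals the log2 fold change was 0.25, with an adjusted p of 0.424 in the same test, the smallest of the list under that scaling. Ndufb3 (chromosome 1, 58586384 to 58595964, plus strand), a distal membrane arm subunit, had 74.6, 61.2 and 81.7 CPM in R193H hearts, against 59.7, 72.9 and 75.8 CPM in wild type hearts. Both groups spanned most of the range, with a log2 fold change of 0.061 (SE 0.13) that turned to -0.026 without R193H heart 3 and to -0.038 without wild type heart 1.

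In 6 further genes the R193H mean was the higher one by less than its standard error, and the 3 of smallest p are given first. Ndufb5 (chromosome 3, 32736990 to 32751566, plus strand), also of the distal arm, had 309, 280.0 and 321 CPM in R193H hearts, against 287, 283 and 318 CPM in wild type hearts (log2 fold change 0.035, SE 0.088). Ndufb2 had 52.2, 48.3 and 50.5 CPM in R193H hearts, against 50.9, 51.4 and 46.5 CPM in wild type hearts (log2 fold change 0.021, SE 0.079). Ndufa7, an N module subunit, had 92.6, 86.1 and 87.1 CPM in R193H hearts, against 87.3, 88.9 and 86.3 CPM in wild type hearts (log2 fold change 0.018, SE 0.073). The groups overlapped in these 3 genes. Ndufs4, an accessory subunit whose loss in mice gives a model of Leigh syndrome, had a log2 fold change of 0.0077 (SE 0.079), beside 0.022 (SE 0.11) for Ndufa13 and 0.0035 (SE 0.082) for Ndufa2.

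Ndufs5 was the exception in its spread. This small subunit of the proximal membrane arm (chromosome 4, 123712710 to 123718202, minus strand) had 977, 1542 and 48 counts in R193H hearts 1, 2 and 3, against 1131, 725 and 898 counts in wild type hearts 1, 2 and 3. R193H heart 3 was far below the other 5 hearts. Taken alone, it had a log2 fold change of -0.53 (SE 1.13), and its biological coefficient of variation of 94.2% lay at percentile 99.6 of all genes tested. BC002163, an annotated processed pseudogene (a copy of the spliced messenger RNA inserted in the genome; chromosome 16, 42955631 to 42955949, plus strand), has its own row in the table. It had 925, 10 and 1815 counts in R193H hearts 1, 2 and 3, against 3, 728 and 887 counts in wild type hearts 1, 2 and 3. The pseudogene was high where Ndufs5 was low: it held 48.6%, 0.644% and 97.4% of the summed counts in R193H hearts and 0.265%, 50.1% and 49.7% in wild type hearts.

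The 2 sequences are shown because they are nearly the same. Over the 319 aligned bases they are 99.4% identical and differ by the substitutions T81C and A105G, with the base of Ndufs5 first and positions counted from the A of its start codon. Bases 61 to 120 of both, from GENCODE M21 transcripts on GRCm38, hold both differences, written in capitals.
Ndufs5: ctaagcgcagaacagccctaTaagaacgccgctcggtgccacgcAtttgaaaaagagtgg
BC002163: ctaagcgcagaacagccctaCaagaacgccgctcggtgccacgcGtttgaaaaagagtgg

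With the counts of both rows added, the sums were 1902, 1552 and 1863 in R193H hearts, against 1134, 1453 and 1785 in wild type hearts. On TMM-scaled totals these sums were 81.1 ± 8.76 CPM in R193H hearts and 86.0 ± 4.82 CPM in wild type hearts (SD, n = 3 each). The summed row had a log2 fold change of -0.085 (SE 0.096, adjusted p = 0.919 in edgeR's quasi-likelihood test), inside the range of the other 35 genes. The single-row value of Ndufs5 is therefore uncertain. How the counting treated reads that match both places is not given in the sources used here, and whether it produced the split was not tested.

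**Figure D3:**
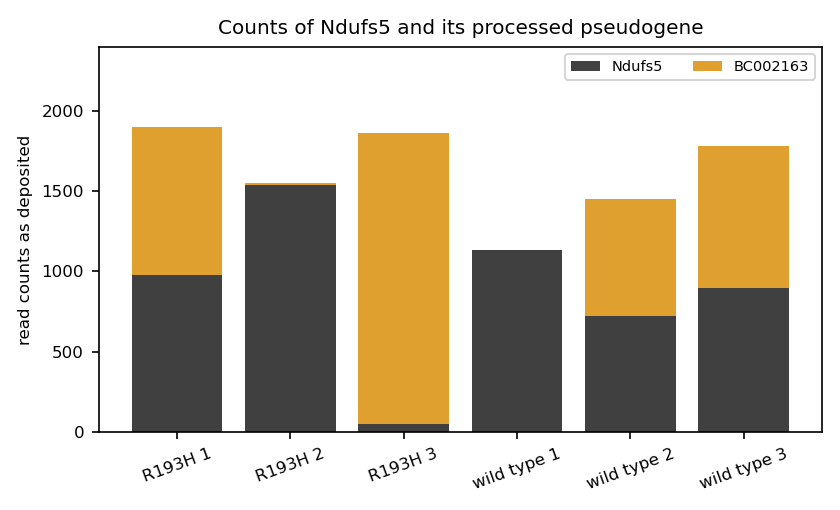
Read counts as deposited (vertical axis) for Ndufs5 (dark) and its processed pseudogene BC002163 (orange), stacked, in each heart. The split between the 2 rows changes from heart to heart, with 48 of 1863 counts on Ndufs5 in R193H heart 3 and 1131 of 1134 in wild type heart 1.

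Other genes of the list have near-identical processed pseudogenes too, found by a sequence search at 95% identity or more over at least 200 bases. Ndufab1, the mitochondrial acyl carrier protein, shared its summed counts with Gm4459 at a steady 13.3% to 15.5% for the pseudogene. Ndufs3 shared with Gm12251 at 2.97% to 4.55%, and Ndufb11 with Gm6444 at 0.0664% to 0.277%. Summing those rows moved the log2 fold changes of these 3 genes by less than 0.01. Pseudogenes of Ndufa12, Ndufb3, Ndufb4 and Ndufs6, and a second one of Ndufab1, were found in the annotation and were not analysed here. In addition, 12 members share exon bases with a gene on the opposite strand that has its own row, such as Ndufa13 with Tssk6 (375 bases), Ndufb5 with Mrpl47 (616 bases) and Ndufs1 with Ino80dos (489 bases). Whether the counting used strand is not given in the sources used here.

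Per length the members differed far more from each other than between genotypes. Levels are given as CPM per kilobase of the principal transcript (RPKM), averaged over the 6 hearts with their SD. The highest was Ndufa4, at 683 ± 41.3 RPKM. Among the next genes reported, Ndufb8 had 449 ± 21.2, Ndufb10 433 ± 16.4 and Ndufb9 423 ± 22.3 RPKM. Each differed from its neighbour in this order by less than its own SD. The lowest tested genes were Ndufb2 at 20.7 ± 0.889 and Ndufb4 at 9.82 ± 0.905 RPKM. Ndufb4 has the pseudogene Ndufb4c, identical over 390 bases and without a row analysed here, so its level is uncertain. With the length of all annotated exons in place of the principal transcript, Ndufb4 was still the lowest of the tested genes. The order at the top changed: Ndufb9 (289 RPKM) then lay above Ndufa4 (263 RPKM), and Ndufb8 fell to 97.0 RPKM.

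Ndufa4 itself (chromosome 6, 11900292 to 11907497, minus strand) had 359, 325 and 371 CPM in R193H hearts, against 359, 370.3 and 391 CPM in wild type hearts. R193H heart 2 was the lowest, the groups overlapped, and the log2 fold change was -0.086 (SE 0.085). Ndufb4 (chromosome 16, 37647170 to 37654453, minus strand) had 9.17, 8.97 and 9.97 CPM in R193H hearts, against 10.9, 8.42 and 9.77 CPM in wild type hearts. Its groups overlapped, with a log2 fold change of -0.050 (SE 0.14).

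**Figure D4:**
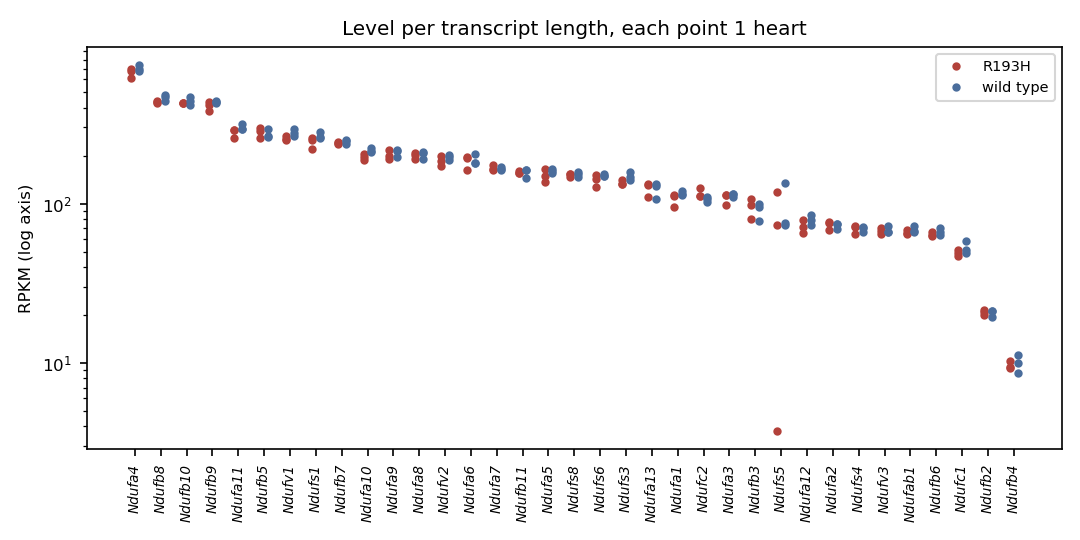
Level per transcript length (vertical axis, RPKM, log scale) of 35 of the tested genes, ordered by their mean, with 1 point per heart, R193H in red to the left of wild type in blue. Points of both groups lie together for each gene except Ndufs5, where 1 R193H heart is far below, and the genes span 9.82 to 683 RPKM.

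The other genes of the pathway gave context from the same fit. All 7 mitochondrially encoded ND genes, which make the proton-pumping core of the membrane arm, were tested and 0 passed the adjusted threshold in edgeR. An unadjusted p under 0.05 was found for 2 of them, against 5.73% of all genes. Their median log2 fold change was -0.26, with 6 of 7 lower. It was -0.48 without R193H heart 1, -0.14 without R193H heart 2 and -0.14 under scaling by library totals. ND5 had 33289, 27088 and 32944 CPM in R193H hearts, against 43834, 42524 and 43597 CPM in wild type hearts. Its groups did not overlap, and the log2 fold change was -0.48 (SE 0.096, adjusted p = 0.526 in edgeR's quasi-likelihood test). Mitochondrial genes also have copies in the nuclear genome, which makes their counts uncertain.

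Within a library, the ratio of summed ND counts to summed counts of the 37 nuclear genes does not depend on scaling. It was 18.15, 15.02 and 17.72 in R193H hearts 1, 2 and 3, against 20.02, 20.18 and 19.50 in wild type hearts 1, 2 and 3. All R193H hearts lay below all wild type hearts, with means of 17.0 ± 1.69 and 19.9 ± 0.356 (SD, n = 3 each). With 3 hearts against 3, an exact permutation test cannot give a two-sided p under 0.1. The difference was therefore not tested. R193H heart 2 had the lowest ratio, and without it the R193H mean was 0.901 of the wild type mean, in place of 0.852. The ratio does not show which of the 2 sets of messenger RNAs differed.

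The assembly factors, which build the complex and are not part of it, did not lean to one side. Of 15 tested, 8 had lower means, with a median log2 fold change of -0.010 and 0 calls in edgeR (0 at an unadjusted p under 0.05). Over all genes, 50.1% had lower means and 5.73% an unadjusted p under 0.05 in edgeR. Among 40 nuclear genes of complexes II to V, 33 had lower means under TMM scaling, with a median of -0.073, 0 calls in edgeR and 1 gene at an unadjusted p under 0.05. That gene, Cox7c of complex IV, had 22.9, 21.6 and 24.3 CPM in R193H hearts, against 36.0, 37.0 and 24.5 CPM in wild type hearts. Wild type heart 3 lay next to the R193H hearts. Under scaling by library totals the median of these 40 genes was 0.053, so their direction turned with the scaling as that of the complex I genes did. The difference between these 2 lists was not tested.

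Of 9 tested regulators of mitochondrial gene expression, 4 had lower means, and 0 passed the adjusted threshold in edgeR. The coactivator Ppargc1a (PGC-1alpha) was the only 1 with an unadjusted p under 0.05, with 103, 77.2 and 115 CPM in R193H hearts, against 118, 128 and 134 CPM in wild type hearts. R193H heart 2 was again the lowest, and the log2 fold change was -0.36 (SE 0.14, adjusted p = 0.793 in edgeR's quasi-likelihood test). Nrf1, a transcription factor with sites in many respiratory chain promoters, was not tested because its counts were too low.

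The promoters of the list were read for motifs of these regulators, since shared letters are a feature the symbols do not fix. RefSeq promoters on GRCm38.p6 (250 bases before to 50 after the transcription start) were at hand for 33 of the 37 genes. Both strands were searched, and matches of different motifs did not overlap. The NRF1 motif (GCGC, then any base N, then TGCGC) was in 7 of 33 promoters (21.2%), against 5.19% of 27025 genes. The YY1 motif AAGATGGC was also in 7 of 33 (21.2%), against 3.19% of all genes. CCGGAAG, the ETS core bound by GABPA, was in 4 of 33 (12.1%, all genes 9.93%), and AAGGTCA, bound by estrogen-related receptors, in 3 of 33 (9.09%, all genes 5.38%). The share of all genes is over every gene with a promoter, not over genes matched to the list in level or base content. A match is a run of letters, not a measured binding site.

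The 7 YY1 matches are shown because of where they lie. All are after the transcription start, with their first base at positions 23 to 39, and in each of the 7 the ATG inside the match is the start codon annotated in GENCODE M21. How many of all genes have a start codon in this window was not counted, so the share of all genes does not take it into account. The motif is in capitals, with up to 10 bases on either side as far as the table's window reaches.
Ndufa3, chr7:3617385-3617412, plus strand: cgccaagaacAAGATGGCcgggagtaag
Ndufa9, chr6:126849098-126849125, minus strand: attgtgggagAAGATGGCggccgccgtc
Ndufb8, chr19:44555393-44555414, minus strand: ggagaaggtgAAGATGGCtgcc
Ndufc1, chr3:51408916-51408943, minus strand: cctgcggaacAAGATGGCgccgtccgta
Ndufs4, chr13:114388045-114388069, minus strand: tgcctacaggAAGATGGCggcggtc
Ndufs6, chr13:73328433-73328459, minus strand: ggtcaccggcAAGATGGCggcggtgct
Ndufs7, chr10:80249463-80249490, plus strand: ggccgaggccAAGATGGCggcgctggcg

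Among the 6 tested genes with this motif, log2 fold changes ran from -0.11 for Ndufc1 to 0.0077 for Ndufs4, within the range of the list. The NRF1 motif occurred 3 times in the promoter of Ndufb4, the tested gene of lowest level per length. It is shown for that repeat, with the reverse complement of the motif in capitals. Positions are counted from the RefSeq start. All but the farthest match lie within the GENCODE span of Ndufb4 given above.
Ndufb4 at 191 bases before the start, chr16:37654540-37654569, minus strand: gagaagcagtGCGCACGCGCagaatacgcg
Ndufb4 at 79 bases before the start, chr16:37654428-37654457, minus strand: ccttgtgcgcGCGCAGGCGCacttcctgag
Ndufb4 at 22 bases before the start, chr16:37654371-37654400, minus strand: cctcatatccGCGCAGGCGCagatgtgcgc

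The 37 genes lie on 15 chromosomes. Ndufs8 and Ndufv1 lie on the same stretch of chromosome 19 and had log2 fold changes of -0.010 and -0.12. Ndufa1 and Ndufb11 are on the X chromosome, with log2 fold changes of -0.13 (SE 0.090) and -0.0015 (SE 0.079).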

How the data were processed

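The deposited values are raw, whole-number counts of reads for each gene symbol in 6 hearts, held in 1 table. HISAT2 2.0.4 and the build GRCm38 are named in the submitters' processing notes. RNA was extracted with Trizol, per the labels' protocols. What counted the reads, with which annotation and strand setting, and what became of reads with several matches is not given in the sources used here. Columns were matched to hearts by sample title, and groups came from the genotype label. Replicate numbers only follow the order of the samples.

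The test was edgeR 4.0.16 in R 4.3.3. filterByExpr kept 14370 genes and removed 30422, scaling was by TMM, and the quasi-likelihood fit (robust) ran over all genes with no covariate, with Benjamini-Hochberg adjustment and a threshold of 0.05. The 95% intervals use the fit's t distribution. CPM uses TMM-scaled totals. Lengths and coordinates came from GENCODE M21 on GRCm38, in which all 37 members were matched. Pseudogenes were found with BLAST 2.17.0, and promoters came from RefSeq on GRCm38.p6. Alternatives were 3 other scalings, mitochondrial genes left out, all genes kept, a filter of CPM 1 in 3 hearts, limma-voom (limma 3.58.1), DESeq2 1.42.0, a fit that was not robust, each heart left out, and, chosen after seeing the data, pseudogene counts summed into their parent genes. Counts of every pair of hearts in a group differed by more than sampling noise, so none was a repeat deposit.

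The members and lists were chosen with earlier results of these data known. Full values were given for the core genes, the 5 smallest unadjusted p in each direction, the highest and lowest level per length and Ndufa4. For 1 member, which stays in the counts and sums, no values of its own are reported here. At most 3 genes of each other list were named, by p. Ndufs5 was singled out after its values were seen. Of 8 other Nduf symbols in the table, 7 are assembly factors, and Ndufa4l2, a relative of Ndufa4, was not analysed here.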

Additional observations from a re-analysis of the deposited data

How the results depend on the processing

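No gene of the list was called by edgeR under any alternative, or by DESeq2 or limma-voom, and with 3 hearts against 3 this does not show that levels are equal. Over all genes, edgeR called 1, with 0 called when mitochondrially encoded genes were left out, 38 with no filter, 40 by DESeq2, and 3 to 21 with a heart left out. Scaling by library totals changed directions because it moves the median of all genes to 0.13. The members' median log2 fold change was then 0.067, and 6 members had a lower mean, where 21.3% of all genes did. The ratio of the members' summed CPM, R193H over wild type, was then 1.04 in place of 0.949. The list medians were then 0.12 for assembly factors, 0.053 for nuclear genes of complexes II to V and 0.13 for regulators, while that of the ND genes stayed below 0, at -0.14. Ndufs8 stood at 0.12, Ndufv1 at 0.0036, Ndufv2 at 0.054, Ndufa4 at 0.037 and Ndufb4 at 0.074, and Ndufc2 rose from 0.13 to 0.25. With each heart left out in turn, the median of the ND genes ran from -0.48 to -0.14, and the members' median from -0.081 to -0.026, with 24 to 31 members lower. Single genes near 0 turned sign: Ndufs8 ran from -0.039 to 0.017, Ndufb3 from -0.038 to 0.17, Ndufb2 from -0.024 to 0.053, Ndufa7 from -0.016 to 0.040, Ndufb4 from -0.14 to 0.039 and Ndufs5 from -1.28 to 0.034. No paired analysis was run because the labels give no pairing of R193H hearts with wild type hearts.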
